A study of Mus musculus with 143 samples.

Results

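Gpnmb, Clec7a and Ptprc are 3 of the genes whose proteins defined the cell sort of a single-cell RNA-seq experiment on microglia, the resident macrophages of the brain. They were taken by name, as 3 of 23337 gene entries of a count table covering 143 cells. Itgam, the gene of the fourth sorted protein, CD11b, is given beside them for comparison.

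The cells came from the cerebellum of wild-type C57BL6N mice at postnatal day 7 with no treatment named, and all belong to 1 group. Single live cells with low CD45, with CD11b and with both Gpnmb and Clec7a on the surface were sorted into wells of 2 plates, named plate 1 (95 cells) and plate 2 (48 cells) below, and full-length libraries were made with Smart-seq2, which carries no molecular identifiers. A name given to the pooled libraries in the labels holds the word adult, although the age label and the title state postnatal day 7, which was used. The labels tie no cell to an animal, so the spread between animals was not seen, and with 1 group and cells that are not replicates no test was made and no p-value is given. Cells gated without Gpnmb or Clec7a were not analysed here, so no value below is relative to other microglia. Gene counts per cell ran from 259613 to 1178529 with a median of 727276, and genes detected from 1552 to 4955 with a median of 3255. All 10 microglia markers checked were read in 20% of cells or more, the 7 lymphocyte markers in the table had none in any cell, and of 10 markers of border-associated macrophages Cd163, Lyve1 and Cd209f were at 0, while Stab1 was read in 87.4% of cells, Mrc1 in 55.9% and Ms4a7 in 20.98%. No cell pair had identical counts.

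Gpnmb encodes a transmembrane glycoprotein found in the endolysosomes and on the surface of macrophages, and transcription factors of the MiT family, which control lysosomal genes, act on its promoter. Clec7a encodes Dectin-1, a C-type lectin receptor for beta-glucans that signals through the kinase Syk and the adaptor Card9. Ptprc encodes CD45, a receptor tyrosine phosphatase of blood-derived cells and microglia that acts on Src family kinases, and low CD45 is the usual sorting mark of microglia against other leukocytes. The gate was set on protein, so a cell without a read of one of these genes is not a cell outside the gate.

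The start regions of the 3 genes are shown because they are the reference stretches nearest to the RNA measured here, and because known regulators of each gene have short recognition motifs that can be looked for in them. All are the 250 bases before the annotated start, from RefSeq on GRCm38.p6, read 5′ to 3′ along the gene's own strand. They lie at chr6:49036268-49036517 on the plus strand for Gpnmb, at chr6:129472780-129473029 on the minus strand for Clec7a and at chr1:138175306-138175555 on the minus strand for Ptprc. Capitals mark GAGGAA, the core bound by the myeloid factor PU.1.
Gpnmb: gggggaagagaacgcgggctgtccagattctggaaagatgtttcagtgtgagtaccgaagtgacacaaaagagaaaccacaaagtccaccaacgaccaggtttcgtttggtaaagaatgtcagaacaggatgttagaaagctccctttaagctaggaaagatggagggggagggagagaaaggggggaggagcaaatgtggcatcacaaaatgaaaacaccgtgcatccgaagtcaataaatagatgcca
Clec7a: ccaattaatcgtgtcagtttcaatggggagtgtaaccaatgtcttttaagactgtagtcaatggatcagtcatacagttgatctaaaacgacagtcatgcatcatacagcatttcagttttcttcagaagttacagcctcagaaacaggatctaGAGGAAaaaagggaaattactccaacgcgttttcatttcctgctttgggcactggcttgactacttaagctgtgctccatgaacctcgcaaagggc
Ptprc: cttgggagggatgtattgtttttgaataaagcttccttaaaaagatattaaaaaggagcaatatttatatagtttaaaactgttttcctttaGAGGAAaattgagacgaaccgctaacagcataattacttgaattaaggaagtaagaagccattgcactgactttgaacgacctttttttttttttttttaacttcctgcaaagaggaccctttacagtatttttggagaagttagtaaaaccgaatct

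Motifs were searched on both strands in these windows and in all 32851 windows of the same length. The CLEAR-type E-box CACGTG was present in 6.02% of all windows, and CATGTG, the core of the M-box bound by MiT factors, in 12.3%. TGANTCA, bound by AP-1, was present in 6.75%, GAGGAA in 23.3% and the cyclic AMP response element TGACGTCA in 1.55%. The Gpnmb window held none of the 5 motifs. RefSeq gives 2 starts each for Clec7a and Ptprc, and the first listed is shown. The Clec7a window held 1 GAGGAA, 96 bases before the start, and the Ptprc window held 1, 158 bases before the start, while that of the other Ptprc start held none. In a search extended to 50 bases after the start, chosen after the data had been seen, Gpnmb had a match to TGANTCA that began 8 bases after the RefSeq start and 20 bases before the start in GENCODE, the annotation used here for gene positions, at chr6:49036526-49036532. That motif was found in 7.81% of all windows of 300 bases. A match or its absence in these windows is a description of the letters and not of binding.

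In GENCODE on the same build, Gpnmb spans chr6:49036546-49070929 on the plus strand, with 6514 exonic bases after merging its transcripts. Clec7a spans chr6:129461591-129472779 on the minus strand, with 2638 exonic bases, and is typed there as a polymorphic pseudogene. Ptprc spans chr1:138062861-138175708 on the minus strand, with 18313 exonic bases. The start region printed for it lies inside this span. Its GENCODE gene contains A130071D04Rik on the same strand, which has no entry of its own in the count table, so reads from the overlap could not be separated.

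Gpnmb RNA was read in nearly every sorted cell and was among the most abundant messages. It had at least 1 read in all but 2 of 143 cells, a share of 98.6% (95% Clopper-Pearson interval 95.04 to 99.8), and this interval, like all others here, covers counting error only, since reads copied by PCR without molecular identifiers are not independent molecules. Levels are given as CPM, the counts a gene would have if its cell held 1000000 gene counts. Gpnmb ran from 0 to 14439 CPM over the 143 cells, its median was 3420.0 and its quartiles were 2115 and 5287. Most cells lay in 1 decade, with 86.7% of cells between 1000 and 10000 CPM, 5 cells at or above it, 11 cells between 100 and 1000 CPM and 1 cell between 10 and 100 CPM. No cell had a Gpnmb value above 0 and under 10 CPM, so an empty range lay between the 2 cells without a read and the rest. That gap does not show that they are another kind of cell. Summed over all cells, Gpnmb had 3982 CPM and ranked 18 by this pooled level.

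Gpnmb varied more from cell to cell than genes of like level. Its squared coefficient of variation was 0.470, against a running median of 0.232 for the genes nearest in mean CPM, an excess of 1.02 on the log2 scale that was larger than that of 98.2% of 7789 genes. The excess was 1.30 on plate 1 and 0.67 on plate 2. The 14 cells with the highest Gpnmb values held 24.02% of the summed CPM.

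Clec7a RNA was lower and was missing from more cells. It had no read in 24 of 143 cells, so that 83.2% of cells had one (76.1 to 88.9), and ran from 0 to 2012 CPM with a median of 331 CPM. Between 100 and 1000 CPM lay 71.3% of cells, with 6 cells at or above 1000 CPM, 11 between 10 and 100 CPM and 0 above 0 and under 10 CPM. An empty range thus lay between the cells without a read and those with one. In reads copied by PCR without molecular identifiers, such a gap does not show separate kinds of cell. The median share of cells with a read among the genes nearest in mean CPM was 91.6%, with quartiles of 86.7% and 95.8%, so the share for Clec7a lay under the lower quartile. Among 6 spike-in RNAs within 2-fold of its mean count, the share of wells with a read ran from 48.3% to 100%, with a median of 93.4%. Its excess of spread was 0.68 on the log2 scale, with 0.46 on plate 1 and 1.098 on plate 2, above 93.8% of genes.

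The 24 cells without a Clec7a read were close in depth to the cells with one. Median gene counts were 721718.5 in cells without a read and 727276 in cells with one, and medians of genes detected were 3102.5 and 3276. Gpnmb was read in 23 of the 24 cells, at a median of 3115 CPM against 3730 CPM in the cells with a Clec7a read. After each cell had been thinned to 200000 gene counts, the share of cells with a Clec7a read was 83.2% again, and no cell was too shallow to be thinned. Every cell with a Clec7a read had at least 10 counts of it, so thinning could hardly remove one. Nor does thinning of reads test for molecules lost before they were copied.

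Ptprc RNA was the least abundant of the 3. It had no read in 34 of 143 cells, so that 76.2% had one (68.4 to 82.9), and ran from 0 to 906 CPM with a median of 144 CPM. Reads were spread over a wider low range than for Clec7a, with 87 cells between 100 and 1000 CPM, 15 between 10 and 100 CPM and 7 above 0 and under 10 CPM. Genes nearest in mean CPM had a median share of 74.8%, close to that of Ptprc, and its excess of spread was 0.14 on the log2 scale. Thinning to 200000 gene counts lowered its share of cells with a read to 74.1%. Itgam lay beside it, with a read in 97 cells (67.8%, 59.5 to 75.4), a median of 107.8 CPM and a range of 0 to 1006 CPM.

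Levels can be set against each other per kilobase of merged exon, a measure that assumes reads along the whole transcript. On that scale pooled Gpnmb was 611 CPM per kb and ranked 51 of 20953 genes with a length, Clec7a was 139.2 CPM per kb and ranked 280, Itgam was 36.3 CPM per kb and ranked 1207, and Ptprc was 10.4 CPM per kb and ranked 3111. The order Gpnmb, Clec7a, Itgam, Ptprc thus placed Ptprc below Itgam, although pooled CPM not divided by length was 190 for Ptprc and 182 for Itgam. The long merged exons counted for Ptprc lower its value per kb if most transcripts use fewer of them, which was not tested.

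The plates differed little for the 3 genes. Gpnmb ran from 0 to 14439 CPM with a median of 3102 CPM on plate 1, and from 548 to 11648 CPM with a median of 4098 CPM on plate 2. Clec7a had medians of 335 CPM on plate 1 and 322 CPM on plate 2, with reads in 82.1% and 85.4% of cells. Ptprc had medians of 137.7 CPM on plate 1 and 180.1 CPM on plate 2, with reads in 80% (70.5 to 87.5) and 68.8% (53.7 to 81.3) of cells. The ranges of all 3 genes overlapped across plates. As log2 ratios of pooled CPM, plate 1 over plate 2, the values were -0.13 for Gpnmb, -0.06 for Clec7a and -0.13 for Ptprc, beside a median of 0.07 over 5449 genes. Median gene counts were 752330 on plate 1 and 664365 on plate 2, and the ribosomal RNA precursor Rn45s held a median of 8.16% and 11.4% of gene counts.

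**Figure D1:**
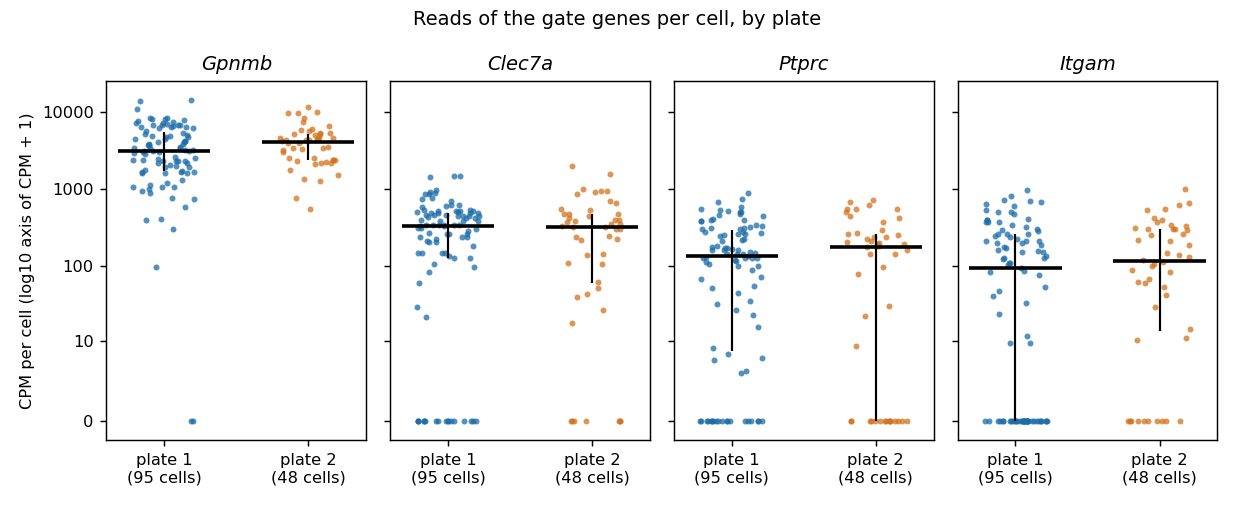
CPM of Gpnmb, Clec7a, Ptprc and Itgam per cell on a log10 axis of CPM + 1, by plate. Each point is 1 cell, thick lines are medians and thin lines span the quartiles. Only 2 points lie at 0 for Gpnmb, against 24 for Clec7a, 34 for Ptprc and 46 for Itgam, and the plates overlap for every gene.

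The genes of the 4 sorted proteins were seen together at about the rate their separate shares give. All 4 had a read in 64 cells (44.8%), 3 of them in 54 cells, a pair in 23 cells and only 1 in 2 cells. Cells with all 4 had a median of 3419 genes detected, those with 3 had 3127.5 and those with a pair had 2841. Gpnmb and Clec7a were both read in 82.5% of cells, where the product of their separate shares is 82.1%. With Gpnmb read in 98.6% of cells, this pair could hardly depart from the product, so its closeness says little. Clec7a and Ptprc were both read in 91 cells (63.6%, product 63.4%), and Ptprc and Itgam in 75 cells (52.4%, product 51.7%).

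The level of one gate gene said little about the level of another. Over the 143 cells, which share 1 pool of libraries and vary in depth, Spearman's rho of CPM was 0.10 between Gpnmb and Clec7a, with 0.11 on plate 1 and 0.12 on plate 2. Between Gpnmb and Ptprc it was -0.071, and between Clec7a and Ptprc 0.0048. With Itgam, rho was -0.13 for Gpnmb, 0.073 for Clec7a and 0.023 for Ptprc. Values of this size in counts with many zeros are no finding in either direction. Scaled to spike-in counts instead of gene counts, which adds the RNA yield of each well to both genes, rho between Gpnmb and Clec7a was 0.23.

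**Figure D2:**
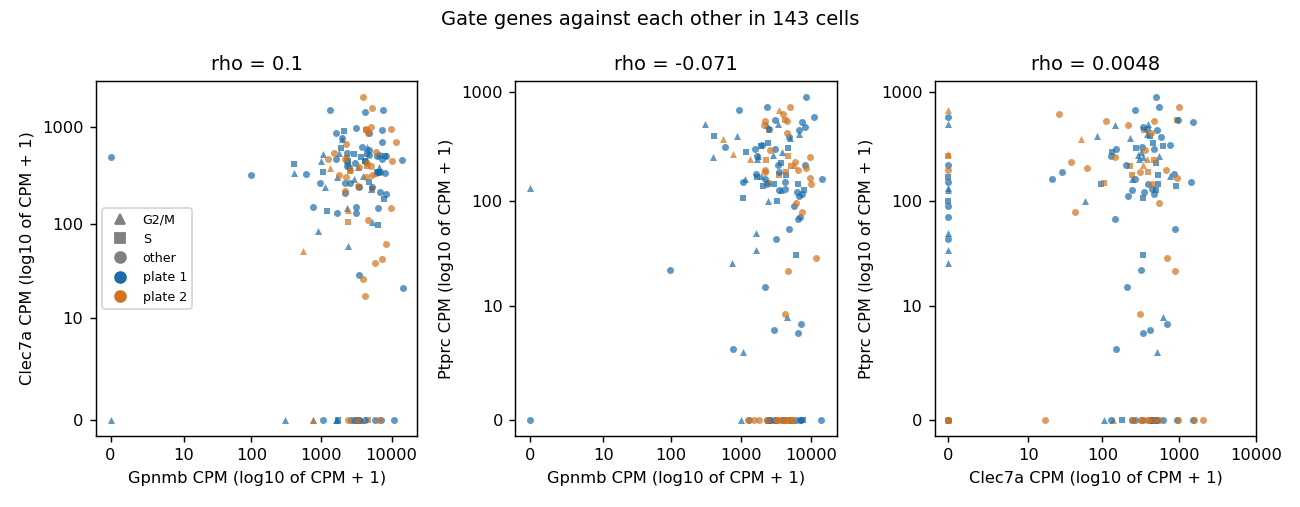
CPM of each pair of gate genes in 143 cells, on log10 axes of CPM + 1, with point shape for the cell cycle class and colour for the plate. The points form no slope, with Spearman's rho of 0.10 for Gpnmb and Clec7a, -0.071 for Gpnmb and Ptprc and 0.0048 for Clec7a and Ptprc.

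Cells were placed in cell cycle classes by their own reads. A cell counted as G2/M where at least 14 of 54 genes of the G2/M list had 10 CPM or more, and otherwise as S where at least 11 of 43 genes of the S list did. There were 30 G2/M cells, 23 on plate 1 and 7 on plate 2, 25 S cells, 17 on plate 1 and 8 on plate 2, and 88 other cells, 55 on plate 1 and 33 on plate 2. The classes cut a range, and 21 cells lay within 2 genes of a limit. More genes were detected in cycling cells, with medians of 3741 genes detected in G2/M cells, 3552 in S cells and 2978.5 in other cells, and 28.1, 27.04 and 21.8 gene counts per spike-in count in the same order.

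Gpnmb was lower in G2/M cells than in cells outside both cycle classes, on both plates. It ran from 0 to 6730.2 CPM with a median of 1863 CPM in G2/M cells, from 411 to 8010.2 CPM with a median of 3448 CPM in S cells, and from 0 to 14439 CPM with a median of 4169.5 CPM in other cells. The ranges overlapped, yet 25 of 30 G2/M cells lay below the median of the other cells, compared with 15 of 25 S cells. Pooled Gpnmb was 2309.8 CPM in G2/M cells and 4639 CPM in other cells, a log2 ratio of -1.01, with -0.97 on plate 1 and -1.09 on plate 2. Of 5449 genes ranked by the same ratio, 6.35% were lower, and the median gene had 0.09. For S over other cells the Gpnmb ratio was -0.30, and 25.03% of genes were lower.

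Clec7a was lower in G2/M cells as well. It ran from 0 to 752 CPM with a median of 188 CPM in G2/M cells, from 0 to 925 CPM with a median of 352 CPM in S cells, and from 0 to 2012 CPM with a median of 342 CPM in other cells. It was read in 70.0% (50.6 to 85.3) of G2/M cells, 88% (68.8 to 97.5) of S cells and 86.4% (77.4 to 92.8) of other cells, and 22 of 30 G2/M cells lay below the median of the other cells. The log2 ratio of pooled CPM, G2/M over other cells, was -0.92, and 7.82% of genes were lower. It was -0.70 on plate 1 and -1.90 on plate 2, where only 7 cells were in G2/M. For S over other cells the ratio was -0.19. Of the 24 cells without a Clec7a read, 9 were in G2/M, 3 in S and 12 in neither class.

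Ptprc did not share the lower level in G2/M cells. It ran from 0 to 686 CPM with a median of 228 CPM in G2/M cells, from 0 to 557 CPM with a median of 175 CPM in S cells, and from 0 to 906 CPM with a median of 104.4 CPM in other cells. It was read in 86.7% (69.3 to 96.2) of G2/M cells, 92% (73.97 to 99.02) of S cells and 68.2% (57.4 to 77.7) of other cells. After thinning to 200000 gene counts the shares were 83.3%, 92% and 65.9% in the same order. The log2 ratio of pooled CPM was 0.31 for G2/M over other cells, with 0.20 on plate 1 and 0.62 on plate 2, and 64.05% of genes were lower. For S over other cells it was 0.20 in all, -0.13 on plate 1 and 0.79 on plate 2, so its sign differed between plates.

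RNA content moved with the classes, and its part in these ratios was not tested. Scaled to spike-in counts, the log2 ratios of G2/M over other cells were -0.59 for Gpnmb, -0.49 for Clec7a and 0.80 for Ptprc. On plate 1 and plate 2 they were -0.52 and -0.68 for Gpnmb, -0.20 and -1.56 for Clec7a, and 0.75 and 0.97 for Ptprc. The plate 1 median of Clec7a per 1000 spike-in counts was 7.12 in G2/M cells and 6.85 in other cells. No ratio over all genes is given on this scale. Reads of Ptprc also followed the number of genes detected. In 3 groups of about equal size, cells with the fewest, a middle number and the most genes detected on their plate, Ptprc was read in 61.7%, 81.3% and 85.4% of cells, Clec7a in 80.9%, 87.5% and 81.3%, and the median of Gpnmb was 3938, 3923 and 2470 CPM.

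**Figure D3:**
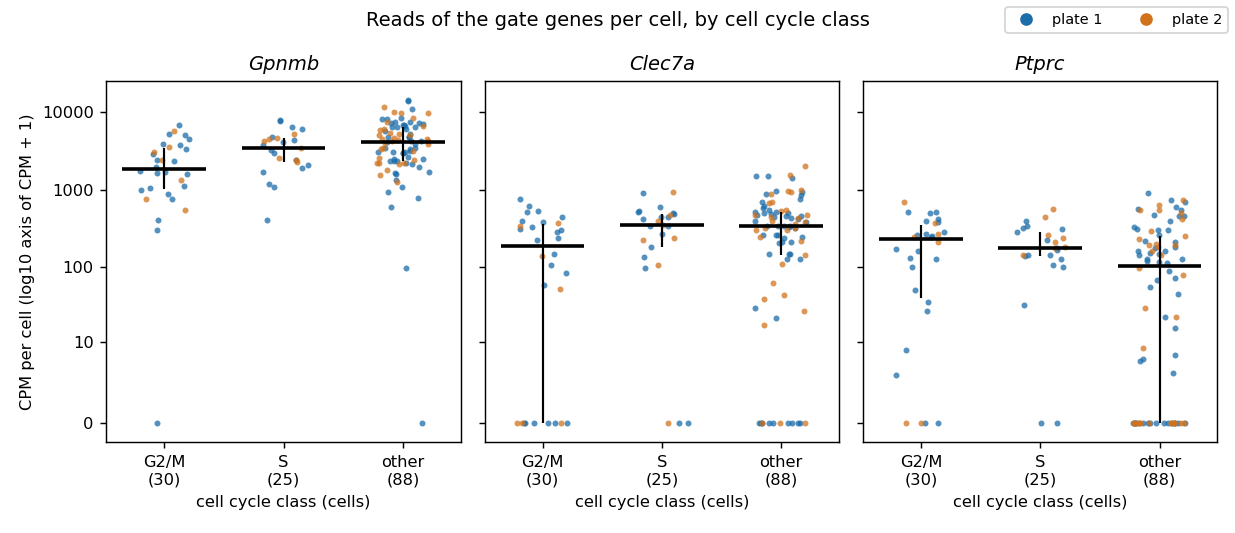
CPM of Gpnmb, Clec7a and Ptprc per cell on a log10 axis of CPM + 1, for G2/M, S and other cells, coloured by plate. Each point is 1 cell, thick lines are medians and thin lines span the quartiles. Medians of Gpnmb are 1863, 3448 and 4169.5 CPM from left to right, those of Clec7a 188, 352 and 342 CPM, and those of Ptprc 228, 175 and 104.4 CPM.

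For each gate gene, Spearman's rho over cells was then taken with every other gene that was read in 20% or more of the cells with 10 or more pooled CPM, 5448 genes each. A gene was called where rho was at least 0.3 over all cells and at least 0.2 on each plate, or at most -0.3 and -0.2. All these values are descriptions over 143 cells of 1 pool, with no p-value.

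Gpnmb had the most such genes, 7 positive, which is 0.128% of genes, and 10 negative, which is 0.184%. At the top were the ferritin light chain gene Ftl1, with rho of 0.40 over all cells, 0.39 on plate 1 and 0.44 on plate 2, and the lysosomal protease gene Ctsb, with 0.39, 0.44 and 0.35. Then came the calcium-binding S100a1 with 0.38, the ferritin heavy chain gene Fth1 with 0.34, the lipid carrier gene Apoe with 0.31, the actin regulator Coro1b with 0.31 and the major histocompatibility gene H2-D1 with 0.31. Both ferritin chains were thus among the 4 highest, and ferritin genes have many processed copies in the genome, whose reads the counting may have shared. P2rx4, a purinergic receptor of microglial lysosomes, Serpinb6a, a protease inhibitor, and Hexa, a lysosomal hexosaminidase subunit, followed just under the limit with 0.30 each.

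The genes that ran against Gpnmb included several that all cells use. The mitochondrial ATP synthase gene Atp5b had rho of -0.38, the ribosomal protein gene Rps23 -0.34, the tubulin gene Tubb5 -0.34, Plekhh2 -0.33 and the spindle gene Tacc3 -0.32. Slc25a5, a mitochondrial ADP and ATP carrier, had -0.34 but only -0.17 on plate 2. In the 88 cells outside both cycle classes, rho with Gpnmb was 0.41 for Ftl1, 0.38 for Fth1, 0.22 for Ctsb, 0.20 for Apoe, -0.34 for Atp5b and -0.21 for Tubb5. The ferritin genes therefore kept their values among these cells, while Ctsb, Apoe and Tubb5 came closer to 0. So did P2rx4 at 0.073, Hexa at 0.16 and Rps23 at -0.17, whereas Plekhh2 lay further out at -0.39. Scaled to spike-in counts, all 7 positive genes were called again among 54, and 0 genes were negative. On that scale the median rho of all genes with Gpnmb moved from -0.027 to 0.046, which makes positive calls easier and negative calls harder. Pearson's r of log2(CPM + 1) kept 3 of the 7, and ranks with plate and genes detected taken out kept 4.

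Clec7a had 1 positive gene past the rule, 0.0184% of genes, and 2 negative, 0.0367%. The positive gene was Lmo2, a haematopoietic transcription cofactor, with rho of 0.30. The growth factor gene Igf1 was higher at 0.32 over all cells, with 0.36 on plate 1 but 0.19 on plate 2. The negative genes were St6galnac4, a sialyltransferase, with -0.37, and Cx3cr1, the fractalkine receptor of homeostatic microglia, with -0.31. Cx3cr1 was read in 99.3% of cells, so its value does not rest on zeros of its own, though Clec7a had no read in 24 cells. On plate 2 rho was -0.203 for Cx3cr1, just past the limit, and -0.22 for St6galnac4, which was read in 37.1% of cells. Without the 5 cells highest in Clec7a no gene was positive, and scaled to spike-in counts 0 were negative.

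Ptprc had 1 positive gene, 0.0184%, and none negative, 0%. The positive gene was Eftud2, a spliceosome component read in 39.2% of cells, with rho of 0.31. The inhibitory receptor gene Lilrb4 came next with 0.30. The lowest were Acp2, a lysosomal acid phosphatase, and Fcgr3, an immunoglobulin receptor, with -0.28 each. With plate and genes detected taken out of the ranks, rho of Eftud2 was 0.28, just under the limit. No gene was called for more than 1 of the gate genes. With so few called of 5448, this says little about whether the gate genes share correlates.

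Most leading genes of 1 plate did not reach rho of 0.2 on the other, for any of the gate genes. Some fall is built in, because the genes were chosen as the highest on 1 plate. The share that reached 0.2 was furthest above that of all genes for Gpnmb. Across all 5448 genes, rho with the gate gene on plate 1 and on plate 2 had a rank correlation of 0.19 for Gpnmb, 0.093 for Clec7a and 0.081 for Ptprc, where genes are not independent of each other. Of the 50 genes highest on plate 1, a check added after the data had been seen, 17 had rho of 0.2 or more with Gpnmb on plate 2, where 8.11% of all genes did. For Clec7a it was 4 of 50, where 7.56% of all genes did, and for Ptprc 9 of 50, where 15.7% did. Of the 50 genes highest on plate 2, 7 reached 0.2 on plate 1 for Gpnmb, 4 for Clec7a and 3 for Ptprc, where 2.72%, 2.75% and 3.30% of all genes did. The median rho of the 50 genes for Gpnmb was 0.27 on plate 1, where they were ranked, and 0.094 on plate 2, and for those ranked on plate 2 it was 0.37 there and 0.047 on plate 1. The median over all genes with Gpnmb was -0.023 on plate 2 and -0.027 on plate 1.

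**Figure D4:**
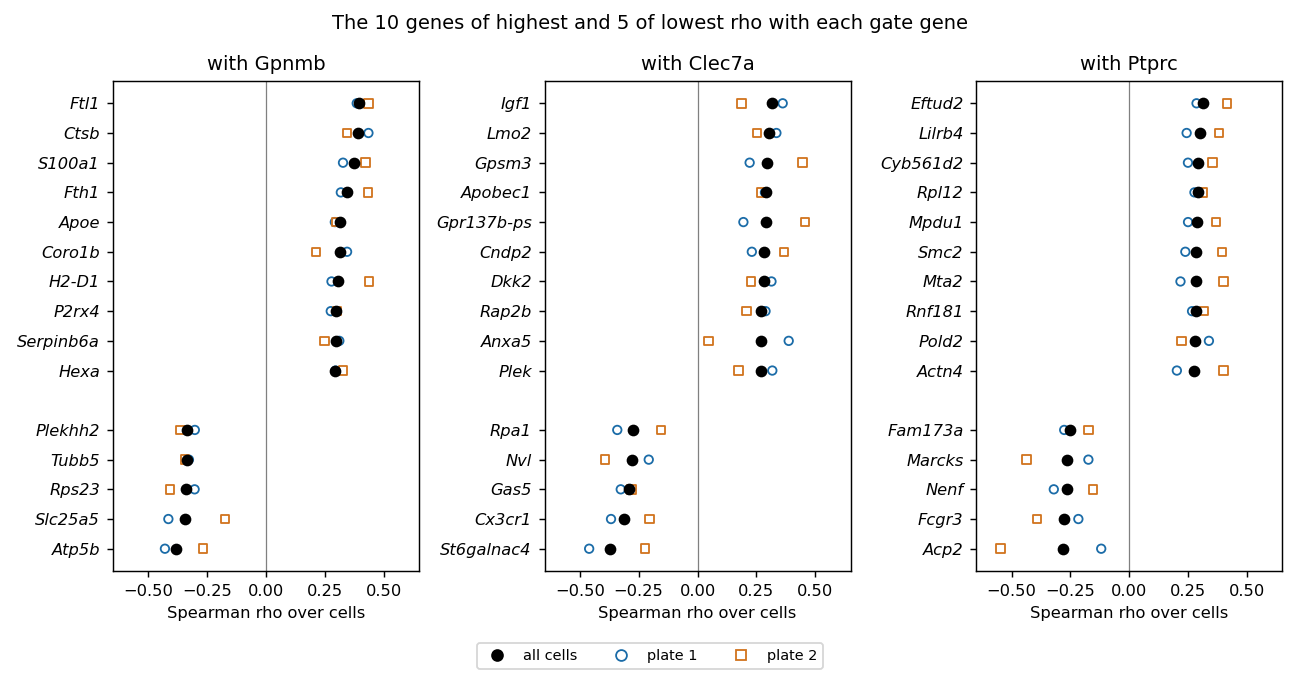
Spearman's rho over cells of the 10 highest and 5 lowest genes for Gpnmb, Clec7a and Ptprc, with filled points for all 143 cells, open circles for plate 1 and open squares for plate 2. Ftl1 leads for Gpnmb with 0.40, Igf1 for Clec7a with 0.32 and Eftud2 for Ptprc with 0.31, and plate values spread more widely for Clec7a and Ptprc.

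MiT factors, which drive Gpnmb in other settings, were read in part of the cells. Tfe3 was read in 53.8% of cells and Mitf in 35.7%, Tfec in 13.99% and Tfeb in 12.6%. Only Mitf and Tfe3 were frequent enough to be ranked, with rho of 0.067 and -0.036 with Gpnmb. For Mitf the plates differed in sign, with -0.064 on plate 1 and 0.39 on plate 2. The melanosome genes of the same factors, Tyrp1, Dct and Mlana, had no read, and Pmel had one in 0.699% of cells. Of 10 partners and sheddases of Gpnmb, 8 were ranked, none was past the rule, and the furthest from 0 was the protease gene Adam17 with -0.22. Over all genes 0.128% were called positive with Gpnmb and 0.184% negative, so none among 8 says little about the list.

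For Clec7a, 22 of 30 genes of Dectin-1 signalling were ranked and none was past the rule, with a median rho of -0.0024 beside -0.015 over all genes. Only 0.0184% of all genes were called positive with Clec7a and 0.0367% negative, so none among 22 says little about the list. Syk, the receptor's kinase, was read in 31.5% of cells and the adaptor gene Card9 in 11.9%. The phosphatase genes Ptpn6 and Inpp5d and the Fc receptor chain gene Fcer1g, the most abundant of the list, were read in 93.01%, 91.6% and 100% of cells, and their rho with Clec7a was 0.088, -0.057 and -0.0044. Other C-type lectin genes were sparse, with only Clec5a, read in 74.1% of cells, and Clec4a3, in 20.3%, ranked of 18.

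For Ptprc, 16 of 23 genes of the CD45 and Src family list were ranked and none was past the rule, with a median rho of 0.0034 beside 0.024 over all genes. Only 0.0184% of all genes were called positive with Ptprc and 0% negative, so none among 16 says little about the list. Lyn, a Src family kinase, was read in 78.3% of cells, Lck, the lymphocyte partner of CD45, in none, and Ptprcap, a protein bound to CD45 in lymphocytes, in 0.699%.

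Lists of microglial state were described in the same way. Of 30 lysosomal genes, 27 had rho above 0 with Gpnmb, where 39.6% of all genes did, with a median of 0.11 beside -0.027 over all genes, and 1, Ctsb, was past the rule. Of 28 ranked genes shared by proliferative-region-associated and disease-associated microglia (PAM and DAM), 21 were above 0 with Gpnmb, beside the same 39.6% of all genes, with a median of 0.097, and Ctsb and Apoe were past the rule. Ctsb, Ctsd, Ctsl, Ctsz, Cd63, Cd68 and Atp6v0d2 are on both lists, so the lists are not separate observations. With Clec7a, 43.7% of all genes were above 0 and the median over all genes was -0.015. Of the 28, 24 were above 0 with a median of 0.074, led by Igf1, and 1 of 21 homeostatic genes was above 0, with a median of -0.10 and Cx3cr1 past the rule. With Ptprc the PAM and DAM median was 0.038 and the homeostatic median -0.051, beside 0.024 over all genes.

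Cell cycle lists ran against Gpnmb and Clec7a and along with Ptprc. With Gpnmb, none of 28 ranked S genes and none of 25 ranked G2/M genes had rho above 0, with medians of -0.18 and -0.21, and Tacc3 was past the rule. Over all genes 39.6% were above 0 with Gpnmb, with a median of -0.027. With Clec7a, 1 gene of each list was above 0, with medians of -0.11 and -0.17, beside 43.7% of all genes and a median of -0.015. With Ptprc, 27 of 28 S genes and 21 of 25 G2/M genes were above 0, with medians of 0.12 and 0.085, beside 60.2% of all genes and a median of 0.024. After plate and genes detected were taken out of the ranks, the S and G2/M medians were -0.13 and -0.15 with Gpnmb. With Clec7a they were -0.064 and -0.14, and with Ptprc 0.046 and 0.015. The medians over all genes were then -0.0082 with Gpnmb, -0.0020 with Clec7a and 0.0026 with Ptprc. Scaled to spike-in counts, the S and G2/M medians were -0.031 and -0.099 with Gpnmb, -0.0078 and -0.081 with Clec7a, and 0.18 and 0.13 with Ptprc. On that scale the medians over all genes were 0.046 with Gpnmb, 0.034 with Clec7a and 0.075 with Ptprc. These lists also set the cycle classes, so they are no separate support for the class ratios.

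**Figure D5:**
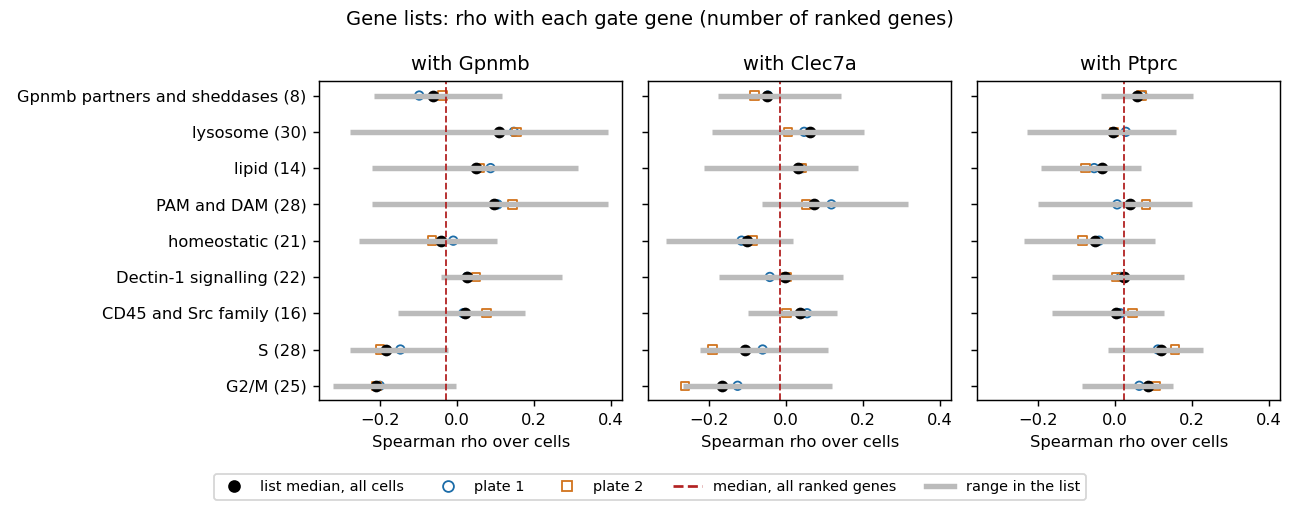
Spearman's rho of listed genes with Gpnmb, Clec7a and Ptprc over 143 cells. Filled points are list medians, open circles and squares the medians on plate 1 and plate 2, grey bars the range over the ranked genes and the dashed line the median of all ranked genes. S and G2/M medians lie at -0.18 and -0.21 for Gpnmb and at 0.12 and 0.085 for Ptprc.

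Over all cells, summed markers of other cells moved weakly with the gate genes, but plate 2 alone gave larger values. Furthest from 0 there were oligodendrocyte markers with Clec7a, at -0.32, and dendritic cell markers with Ptprc, at 0.31. On plate 1 these were -0.0055 and -0.0031. The summed CPM of 10 border-associated macrophage markers, of which 3 were read in at least 20% of cells and Cd163, Lyve1 and Cd209f were at 0, had rho of 0.20 with Gpnmb and 0.14 with Clec7a. For that sum, rho with Gpnmb and Clec7a was 0.17 and 0.062 on plate 1, and 0.29 with each on plate 2. That sum ran from 0 to 961 CPM with a median of 309 CPM in G2/M cells and from 0 to 3382 CPM with a median of 501 CPM in other cells, and its part in the Gpnmb and Clec7a ratios was not tested. The summed CPM of the 10 microglia markers had rho of -0.076 with Gpnmb, -0.24 with Clec7a and -0.15 with Ptprc.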

How the data were processed

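The file holds read counts as the authors deposited them, whole numbers for every gene in each cell, plus 92 spike-in entries of the External RNA Controls Consortium. Build mm10, HTSeq, Picard, STAR 2.5.3a and Trim Galore 0.4.3 are named in the submitters' processing notes. Their settings, the annotation and the use of strand are not given in the sources used here. The column total matched the labelled total in 143 of 143 cells.

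CPM was computed from the deposited counts over a total of gene counts that includes Rn45s and no spike-in. Pooled CPM is summed counts over summed gene counts. No cell was removed. Shares of cells carry Clopper-Pearson 95% intervals. Correlations are Spearman's rho of CPM, computed with Python 3.11.15, pandas 2.3.3 and scipy 1.17.1, and the rule was tested on simulated data. The genes and lists were chosen with earlier results of these data known. Named genes are the gate genes, the 10 highest and 5 lowest by rho for each, list genes past the rule or else furthest from 0 (1 of them is not reported here), and the most abundant signalling genes; Syk, Card9, Lyn, Lck, Ptprcap, Tfec, Tfeb, Clec5a, Clec4a3 and the melanosome genes were added after their values were seen. Plates are the only batches the labels give.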

Additional observations from a re-analysis of the deposited data

How the results depend on the processing

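Of the values recomputed under other settings, 93 moved by less than the tolerance, 1.5-fold for counts and ratios and 0.1 for rho, and 31 moved by more. The cause was not tested for any of them. The log2 ratios of G2/M over other cells had the same sign for all 3 genes under every setting run, including looser and stricter class limits. With the looser limits, 15% of each list, they were -0.61 for Gpnmb, -0.86 for Clec7a and only 0.082 for Ptprc. S over other cells was 0.11 for Clec7a scaled to spike-ins and -0.13 for Ptprc on plate 1. Both of these S ratios changed sign and still counted as within the tolerance, which is wide beside ratios of this size. Genes leading on 1 plate had median rho on the other of at most 0.094, for Gpnmb, and some fall is built into choosing the highest genes. On plate 2 alone, G2/M over other cells was -1.90 for Clec7a and S over other cells 0.79 for Ptprc, and rho of Clec7a with Ptprc was -0.11. Scaled to spike-in counts, rho was 0.23 for Gpnmb with Clec7a and 0.037 for Gpnmb with Ptprc, which was 0.060 in cells of neither cycle class. Scaling to spike-ins also set the counts of genes past the correlation rule to 54 positive and 0 negative for Gpnmb, 17 and 0 for Clec7a and 32 positive for Ptprc. Pearson's r of log2(CPM + 1) gave 1 negative gene for Gpnmb, 3 positive and 0 negative for Clec7a, and 4 positive and 1 negative for Ptprc. With plate and genes detected taken out of the ranks there were 5 negative genes for Gpnmb and 2 positive for Clec7a. Among genes read in at least 50% of cells there were 5 negative for Gpnmb, 1 negative for Clec7a and 0 positive for Ptprc, with fewer genes ranked. Without the 5 cells highest in the gate gene there were 0 positive and 1 negative for Clec7a and 5 positive for Ptprc, of which 0 were shared with the main count. The 7 positive genes of Gpnmb were shared with the spike-in, 50% and unfiltered settings, while Pearson's r shared 3 of them, the residual ranks 4 and the setting without 5 cells 5. The 50% and unfiltered settings change only which genes are ranked. As all 7 were read in 85.3% of cells or more, they could not drop out there. Scaling to spike-ins moved the median rho of all genes with Gpnmb from -0.027 to 0.046. No paired analysis was possible because all cells belong to 1 group and no result comes from a test. Mean counts per cell were 265 for Clec7a and 137.4 for Ptprc, and a missing read does not show that the RNA was absent.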
